A study of Mus musculus with 20 samples.

Results

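The genes described here encode the proteins of the mitochondrial ribosome. They were taken as every gene of the deposited table whose symbol starts with Mrpl or Mrps and a number and is not marked as a pseudogene, which gave 78 of 51789 genes. By subunit, 51 belong to the large and 26 to the small subunit. Mrps18a and Mrps30 count with the large subunit, where their proteins sit. Mrps36 belongs to neither, because its product is a component of the alpha-ketoglutarate dehydrogenase complex despite its name.

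RNA came from the intervertebral disc of BL6 mice aged 24 months. The nucleus pulposus (NP) is the gelatinous core of the disc and the annulus fibrosus (AF) is the fibrous ring around it. Mice received intraperitoneal injections from 18 months of age for 6 months, either of DMSO (vehicle) or of MDL-800 in the same amount of DMSO. The series title speaks of activating SIRT6, a NAD-dependent deacylase of chromatin. Thus all 4 groups are aged mice given DMSO, and each group (NP vehicle, NP MDL-800, AF vehicle, AF MDL-800) has 5 libraries. The labels give no sex and no untreated or young group. They call the samples cells, while the protocol describes tissue dissected under a microscope. Nothing in the labels says that the libraries of a group came from separate animals, so p-values measure the spread between these libraries.

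Mitochondrial ribosomes translate the few proteins encoded by mitochondrial DNA, which are core subunits of the respiratory chain and of ATP synthase. Their RNA comes from mitochondrial DNA, but every one of their proteins is encoded in the nucleus, made in the cytosol and imported. The NP has no blood vessels and is known for energy production by glycolysis, which makes the level of this machinery in disc tissue of interest. Values below are FPKM (fragments per kilobase of transcript, relative to the fragments of the library) divided by a scale factor for each library, called scaled FPKM. Differences are given on the log2(scaled FPKM + 1) scale. A gene is called when limma's Benjamini-Hochberg adjusted p over all 16383 genes tested is under 0.05.

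The estimated depth ran from 12.7 to 21.9 megareads per library. NP markers summed to 25620 to 30790 scaled FPKM in NP vehicle and 2495 to 15090 in AF vehicle. T (brachyury), the notochordal transcription factor, stood between 1193 and 1701 in NP vehicle, but Noto and Car12 stood at no more than 0.155 and 0.119 there. Car12 went against its list, with 0.391 to 2.37 in AF vehicle, as did the AF marker Fmod, with a median of 838 in NP vehicle and 731 in AF vehicle. Markers of other cells were lower in NP: for 9 of 10 lists in vehicle, and 10 of 10 under MDL-800, the summed level of every NP library was below that of every AF library. Neutrophil markers summed to a median of 578 in NP vehicle and 11190 in AF vehicle. Red blood cell markers summed to 86.6 and 1277, and skeletal muscle markers to 99.7 and 2825. None of the markers was listed at 0 in all 5 libraries of a group.

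All 78 genes passed the filter on low values, and 77 stood at 1 FPKM or more in every library. In the plot of levels across the family, the group means span from about 2 to over 100 scaled FPKM. FPKM is a value per length, so levels can be set side by side between genes, though only roughly. Effects of length and GC content on the level of a gene were not removed. The 4 highest members were Mrps21, Mrpl33, Mrpl30 and Mrpl52, and the 4 lowest were Mrpl11, Mrpl35, Mrpl57 and Mrpl23. Transcripts of Mrps21 and Mrpl52 are short, with median lengths of 430 and 418 bases. Mrps21, a small-subunit protein, had 117 ± 14.8 scaled FPKM in NP vehicle, 113 ± 19.6 in NP MDL-800, 141 ± 20.4 in AF vehicle and 141 ± 20.1 in AF MDL-800 (SD, n = 5). Mrpl33, a small protein of the large subunit, had 131 ± 18.8 (SD, n = 5) in NP vehicle and 142 ± 18.9 (SD, n = 5) in AF vehicle, so these neighbours in the order lie within their spread. The order of the members was nearly the same in all 4 groups, with Spearman's rho between group means of 0.953 to 0.990 across the 78 genes. These genes are not independent replicates.

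**Figure D1:**
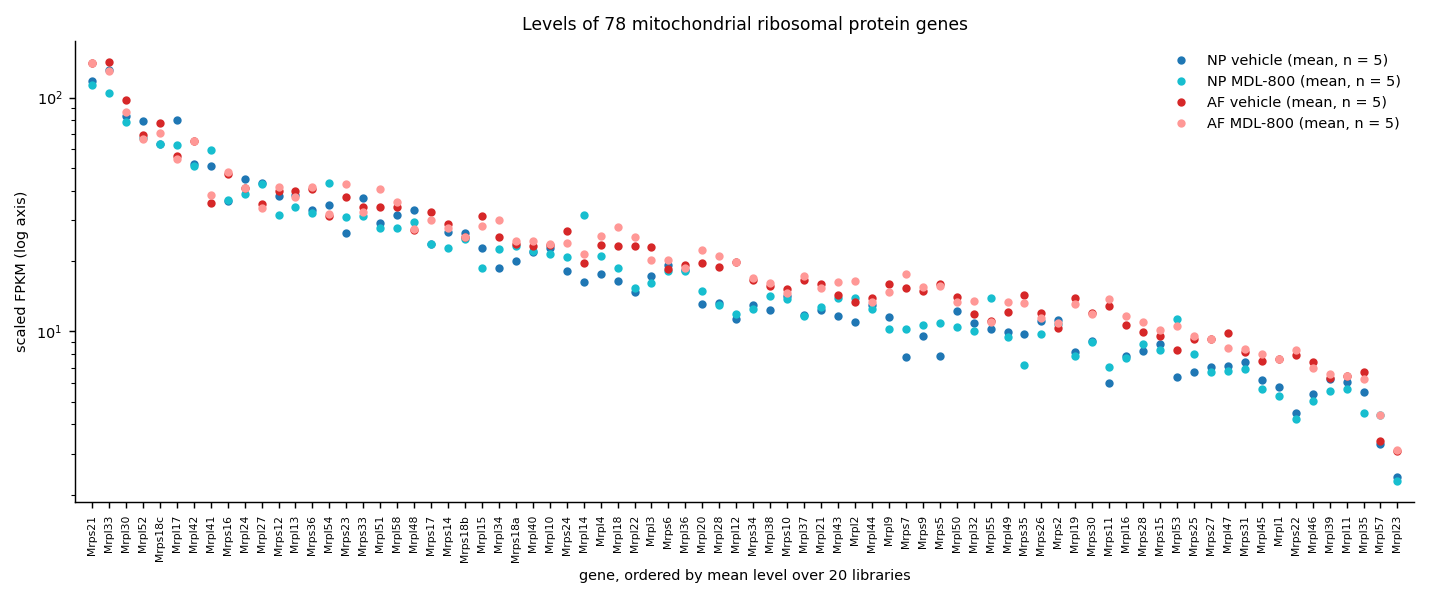
Mean scaled FPKM (log axis) of the 78 mitochondrial ribosomal protein genes in the 4 groups of 5 libraries, ordered by their mean over 20 libraries. Mrps21 and Mrpl33 lie at the top and Mrpl23 at the bottom in every group, and red points (AF) often lie above blue points (NP) of the same gene on this scaling.

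The lowest value in the family is uncertain. Mrpl23, a large-subunit protein at the exit of the peptide tunnel, had 2.38 ± 1.31 (SD, n = 5) scaled FPKM in NP vehicle and 3.06 ± 0.989 (SD, n = 5) in AF vehicle. Its transcript of 692 bases holds a run of 540 bases that is identical to the processed pseudogene Mrpl23-ps1, which has 580 bases in all. The pseudogene itself was listed at 28.8 to 59.4 scaled FPKM, with a median of 42.4, above Mrpl23 in every library. How reads that match both were assigned is not stated, so how the RNA divides between the gene and the pseudogene is unknown. Of the other 4 pseudogenes left out by the rule, Mrps36-ps1 reached 0.414 in 1 library, and Mrpl48-ps, Mrps36-ps2 and Mrps36-ps3 were listed at 0 in all 20. In all, 14 members share over 30% of their stretches of 31 bases with another gene. Besides Mrpl23, those named in the text are Mrpl19, Mrpl22, Mrpl27, Mrpl33, Mrpl53, Mrps18b, Mrps18c and Mrps36, whose values may be uncertain as well. Stretches were counted on either strand. Mrpl19 and Mrps18b share theirs mainly with Gcfc2 and Gm16279, which overlap them on the other strand. The libraries were stranded, but how strand was handled in the FPKM is not stated.

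Members with a role beyond a plain structural one ranged widely in level, from Mrps18c, ranked 5 of 78 over all libraries, to Mrpl45, ranked 70. The 3 paralogs Mrps18a, Mrps18b and Mrps18c had 20.0 ± 3.44, 26.4 ± 4.45 and 63.4 ± 5.99 (SD, n = 5) scaled FPKM in NP vehicle. In AF vehicle they had 23.8 ± 4.27, 25.4 ± 3.61 and 77.8 ± 18.8 (SD, n = 5). Mrps18c, the counterpart of bacterial S18, thus had the highest FPKM of the 3 in both tissues. Mrpl58, a peptidyl-tRNA hydrolase that frees stalled ribosomes, had 31.5 ± 4.05 in NP vehicle and 34.0 ± 5.95 in AF vehicle (SD, n = 5). Mrpl44, which carries a ribonuclease III-like fold, varied least of all members, with a coefficient of variation of 7.84% over 20 libraries. Mrpl45, which ties the ribosome to the inner membrane, had 6.18 ± 0.330 in NP vehicle and 7.49 ± 1.24 in AF vehicle (SD, n = 5).

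The family lies on 17 chromosomes, with 11 members on chromosome 11 and none on X or Y. A divergent neighbour, a gene on the other strand whose start lies within 1000 bases upstream or overlaps the member's start, was found for 26 of 78 members (33.3%), against 13.4% of the protein-coding genes tested. Mrps11 and Mrpl46 form such a pair within the family on chromosome 7. Promoter sequence (RefSeq, GRCm38.p6, from 250 bases before to 50 after the start) was matched for 69 members. The ETS core CCGGAAG, the letters bound by GABPA, a regulator of nuclear genes for mitochondria, was in 26 of 69 (37.7%) on either strand. It was in 18.8% of the 10553 protein-coding genes tested that had promoter sequence, and in 13.3% of all 16235 with promoter sequence. AAGATGGCG, a YY1 site, was in 8 (11.6%), against 3.33% of these genes tested. The palindrome known as the NRF1 site was in 3 (4.35%), against 2.18%. None of the 3 was in 34 members. A match says only that the letters are there. In total 26 of the 31 ETS matches lay within 60 bases of the start. Positions in the promoters of other genes were not counted. By tissue call in vehicle, described below, the core was in 7 of 22 members called lower in NP, 2 of 3 called higher and 17 of 44 not called. The 70 bases before the start are shown for 3 members with an ETS match that are called between the tissues below, Mrps22 and Mrpl22 (lower in NP) and Mrpl27 (higher). Capitals mark the ETS core. Their places are chr9:98601680-98601749 (minus strand) for Mrps22, chr11:58171594-58171663 (plus) for Mrpl22 and chr11:94653721-94653790 (plus) for Mrpl27.
Mrps22: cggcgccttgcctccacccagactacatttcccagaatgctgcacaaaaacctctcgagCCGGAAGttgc
Mrpl22: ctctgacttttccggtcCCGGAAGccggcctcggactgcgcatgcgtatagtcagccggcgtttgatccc
Mrpl27: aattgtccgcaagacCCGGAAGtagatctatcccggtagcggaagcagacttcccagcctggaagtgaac

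The first comparison set NP against AF in vehicle-treated mice. Summed over the family, NP vehicle had 1780 ± 49.7 scaled FPKM and AF vehicle 2014 ± 200 (SD, n = 5), and the lowest AF library (1810) lay below the highest NP library (1841). Of the 78 members, 3 were called higher in NP and 26 lower, where the background over all genes tested was 21.8% higher and 33.9% lower. So the share called lower (26 of 78) was near the background and the share called higher was below it. The median of the members was −0.27 and that of all genes tested −0.08. The sign of the counts depended on the scaling. Without scaling, 2 were higher and 33 lower. After quantile normalization there were 6 and 10, and after upper-quartile scaling 7 and 9. With the trends on GC content and length removed there were 14 and 7. The median of all genes moved the same way, but the share called lower moved further for the members than for all genes. The median of all genes went to −0.14, 0.20, 0.11 and 0.23 in the same order, and the members' median stayed below it, by 0.19 under the scaling used here. That gap was -0.20, -0.23, -0.17 and -0.155 under the others. The share of all genes called higher was 18.8%, 39.5%, 32.3% and 41.8% under these 4 scalings, against 2.56%, 7.69%, 8.97% and 17.9% of members. The share called lower was 36%, 23.9%, 27.3% and 24.3% of all genes, against 42.3%, 12.8%, 11.5% and 8.97% of members. In bulk tissue, fewer cells of a type and less RNA per cell cannot be told apart.

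**Figure D2:**
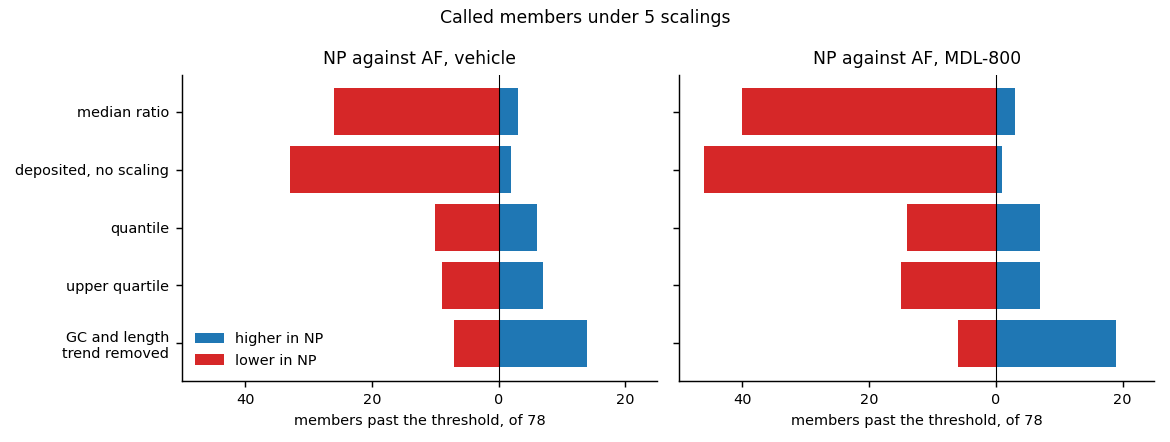
Number of the 78 members called higher (blue) or lower (red) in NP than in AF, in vehicle (left) and under MDL-800 (right), for 5 ways of scaling the same deposited values. In vehicle the counts go from 3 higher and 26 lower with median-ratio scaling to 14 higher and 7 lower with GC and length trends removed. All genes moved alike between scalings, and the members' median lay below that of all genes under each of the 5, by 0.19 with median-ratio scaling and 0.155 with trends removed.

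The 3 largest falls in NP were of small-subunit members. Called lower were 11 of 26 small-subunit and 15 of 51 large-subunit members, against 33.9% of all genes tested. All 3 called higher were of the large subunit, against 21.8% of all genes tested. Whether the subunits differed was not tested. In the plot of tissue differences by gene, Mrps11, Mrps5 and Mrps7 form the low end and Mrpl17 and Mrpl41 the high end.

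**Figure D3:**
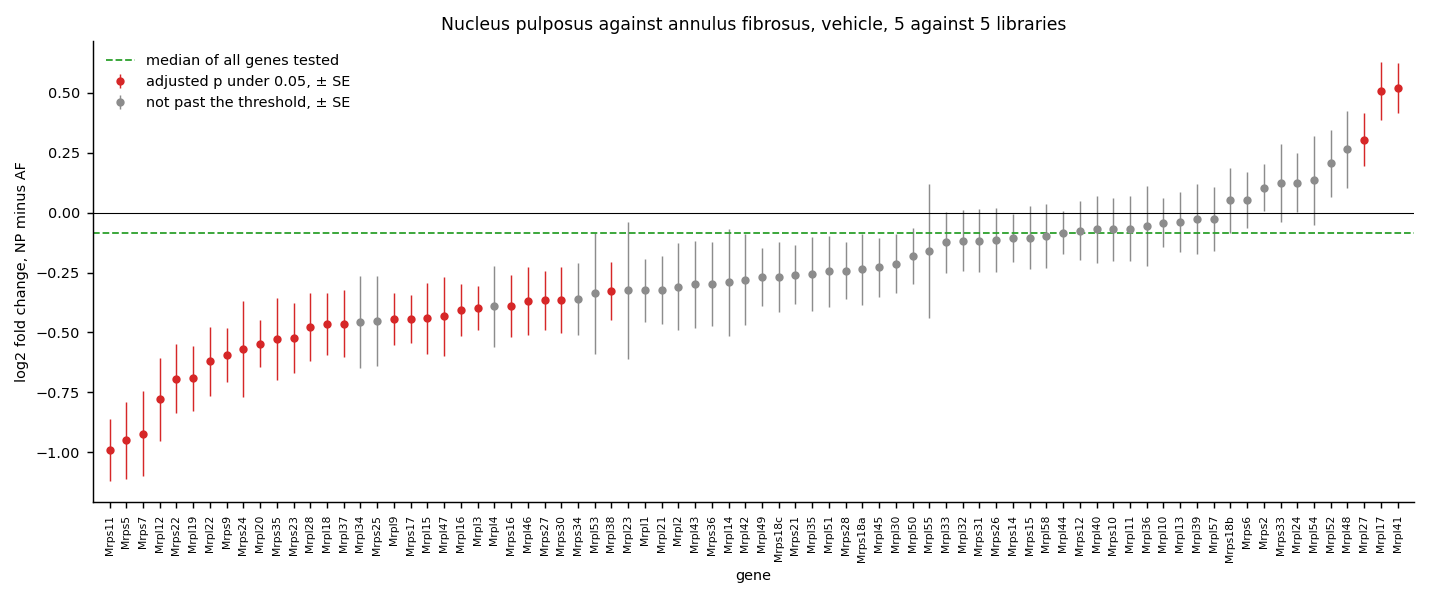
Log2 fold change (NP minus AF, vehicle, 5 against 5 libraries) of each of the 78 members with its SE; red points passed the threshold and the dashed line is the median of all genes tested. Mrps11 is lowest at −0.99 and Mrpl41 highest at 0.52; with GC and length trends removed the members' median goes from −0.27 to 0.08 while that of all genes goes from −0.08 to 0.23.

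Mrps11, on the platform of the small subunit, had 5.94, 6.34, 4.50, 5.38 and 7.95 scaled FPKM in the 5 NP vehicle libraries and 12.9, 12.0, 13.0, 14.0 and 12.1 in the 5 AF vehicle libraries. Every NP library was below every AF library. The means were 6.02 ± 1.28 and 12.8 ± 0.818 (SD, n = 5), a log2 difference of −0.99 (limma SE 0.13, adjusted p = 0.000111). Mrps7, which binds the head of the small-subunit RNA, had 5.49, 5.48, 8.93, 9.65 and 9.25 in NP vehicle and 16.1, 16.9, 17.1, 14.3 and 12.1 in AF vehicle. Again the groups did not overlap, and NP libraries 1 and 2 were the lowest. Its log2 difference was −0.92 (limma SE 0.18, adjusted p = 0.00117). Mrps5, a small-subunit protein near the mRNA entrance, had 7.51, 6.26, 5.92, 8.96 and 10.5 in NP vehicle and 14.5, 17.9, 14.1, 13.8 and 19.3 in AF vehicle. These groups did not overlap either, and the log2 difference was −0.95 (limma SE 0.16, adjusted p = 0.000541).

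Mrpl12, the stalk protein that contacts translation factors, had 8.57, 7.82, 13.0, 13.9 and 13.5 scaled FPKM in NP vehicle and 20.6, 23.9, 20.0, 16.2 and 18.5 in AF vehicle. All NP libraries were below all AF libraries, with a log2 difference of −0.78 (limma SE 0.17, adjusted p = 0.00294). Mrps22, a small-subunit protein without a bacterial counterpart, fell by 0.69 on the log2 scale (SE 0.14, limma adjusted p = 0.00188), from 7.94 ± 1.74 in AF to 4.48 ± 0.593 in NP (SD, n = 5). Mrpl19 fell by 0.69 (limma adjusted p = 0.00131), Mrpl22, which lines the peptide exit tunnel, by 0.62 (limma adjusted p = 0.00349) and Mrps9 by 0.59 (limma adjusted p = 0.00121). Mrpl22 was the only one of these 8 whose groups overlapped. Over the family the groups did not overlap for 2 members higher and 16 lower in NP, against 15.1% and 25.9% of all genes tested.

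The 3 members higher in NP were Mrpl41, Mrpl17 and Mrpl27. Mrpl41, a large-subunit protein without a bacterial counterpart, had 43.5, 47.0, 53.2, 53.9 and 57.4 scaled FPKM in NP vehicle and 33.4, 40.5, 35.5, 35.7 and 31.1 in AF vehicle. Every NP library was above every AF library, and the log2 difference was 0.52 (limma SE 0.10, adjusted p = 0.00150). Mrpl17, a large-subunit protein near the exit of the peptide tunnel, had 79.8 ± 4.95 (SD, n = 5) in NP against 56.4 ± 9.85 in AF, a log2 difference of 0.51 (limma SE 0.12, adjusted p = 0.00424) without overlap. Mrpl27, which reaches towards the peptidyl transferase centre, had 43.3 ± 3.89 and 35.0 ± 4.99 (SD, n = 5), a log2 difference of 0.30 (limma SE 0.11, adjusted p = 0.0376) with overlapping groups. This call was lost without any 1 of NP libraries 1, 2, 5 and 6 or AF libraries 8, 10 and 13 (limma adjusted p between 0.0541 and 0.0887), and without scaling (0.109).

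A few members kept their call whatever the scaling. In vehicle, 6 were called lower in NP under all 5 scalings (Mrpl12, Mrpl19, Mrps5, Mrps7, Mrps9 and Mrps11) and 2 were called higher (Mrpl17 and Mrpl41), while 30 were never called. The share of all genes that kept a call under all 5 was not counted. The log2 fold change of Mrps11 ranged over the scalings from −1.05 to −0.59, and that of Mrpl41 from 0.45 to 0.94. Mrps22 and Mrpl22 were called lower, and Mrpl27 higher, under 4 of 5. The markers of other cells moved with the tissue as given above. With the mean log2(scaled FPKM + 1) of the red blood cell or bone markers as a covariate, 0 members were called in either direction. With skeletal muscle markers, 2 were called higher and 6 lower. How many of all genes were called in these fits is not given here, so the counts cannot be read as particular to the members. Because 9 of 10 marker lists did not overlap between NP and AF, these levels and the tissue cannot be told apart.

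**Figure D4:**
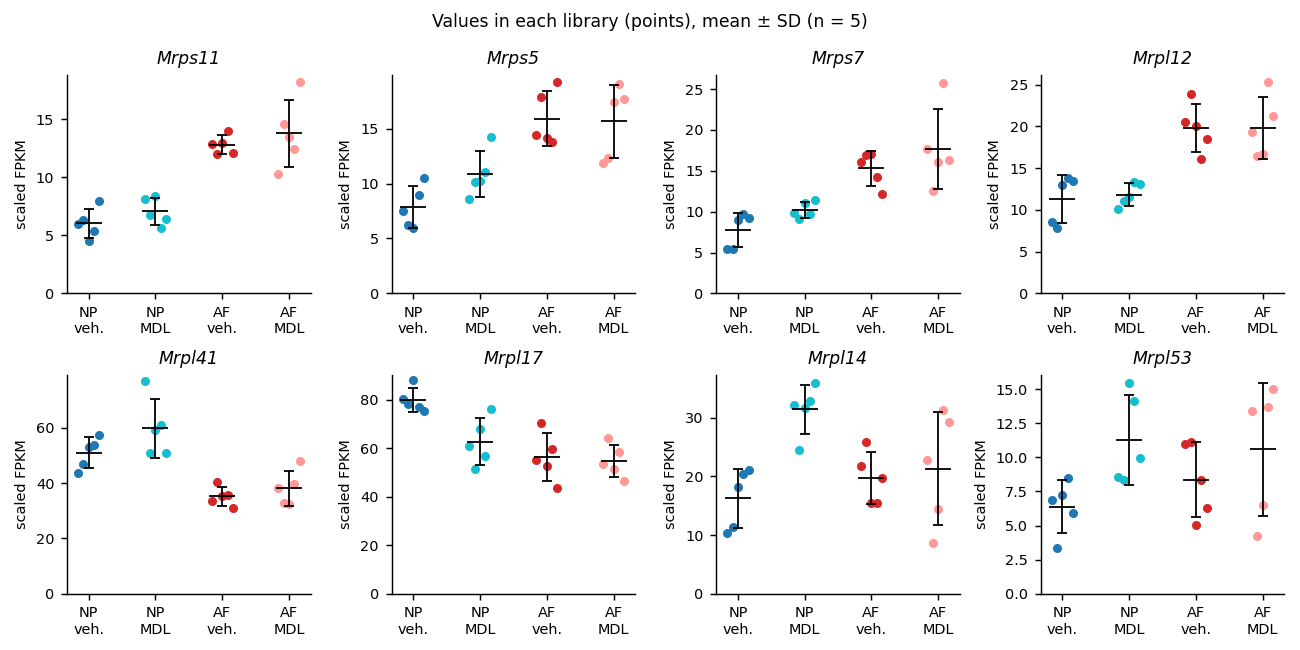
Scaled FPKM of 8 members in each library (points) with mean ± SD (n = 5) for NP and AF under vehicle and MDL-800. Mrps11, Mrps7 and Mrpl12 lie lower in NP than in AF under both treatments, Mrpl41 lies higher in NP, and in NP Mrpl14 is higher under MDL-800 without overlap.

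The same comparison under MDL-800 uses 10 other libraries. Here 3 members were called higher in NP and 40 lower, where the background was 25.6% higher and 37.2% lower, and again the sign of the counts depended on the scaling, with 1 and 46 without scaling, 7 and 14 after quantile normalization, 7 and 15 after upper-quartile scaling and 19 and 6 with GC and length trends removed. The share called lower (40 of 78) was above the background under this scaling and the share called higher below it. The median was −0.30, against −0.08 for all genes. Under the other 4 scalings the median of all genes was −0.16, 0.205, 0.10 and 0.24 in that order, and the members' median differed from it by -0.225, -0.24, -0.19 and -0.18. With trends removed, 44.7% of all genes were higher and 26% lower, against 24.4% and 7.69% of members. Without scaling, 21.7% of all genes were higher and 40.1% lower. After quantile normalization these shares were 42.2% and 26.2%, and after upper-quartile scaling 35.5% and 30.1%. The largest falls were of Mrps35, −0.88 (limma SE 0.28, adjusted p = 0.0175), Mrps11, −0.87 (limma SE 0.15, adjusted p = 0.000519), and Mrps22, −0.83 (limma SE 0.13, adjusted p = 0.000306). Mrps7, Mrpl22, Mrpl12, Mrpl19 and Mrpl28 followed with −0.70, −0.70, −0.69, −0.66 and −0.66. Mrps35, a protein of the small-subunit head, had 5.35, 6.25, 3.20, 9.82 and 11.3 scaled FPKM in NP MDL-800 and 9.60, 17.8, 14.6, 11.7 and 12.6 in AF MDL-800. Its groups overlapped, unlike those of Mrps11 and Mrps22. Over the family the groups did not overlap for 1 member higher and 26 lower in NP, against 18.5% and 30.5% of all genes tested.

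Of the members called lower, 23 were called in both treatments, which is 88.5% of the 26 in vehicle and 57.5% of the 40 under MDL-800. Of all genes tested, 33.9% were called lower in vehicle and 37.2% under MDL-800. Their overlap was not counted, so whether the members recur more than other genes is not known. Mrpl38, Mrpl47 and Mrps24 were called in vehicle alone. Whether the tissue difference depends on treatment is tested further on. Mrpl41 and Mrpl27 were called higher in NP in both, with log2 differences of 0.63 (SE 0.14, limma adjusted p = 0.00247) and 0.32 (SE 0.11, limma adjusted p = 0.0248) under MDL-800. Mrpl17 was called higher in vehicle alone, with 0.19 (SE 0.12, limma adjusted p = 0.205) and overlapping groups under MDL-800. Mrpl54, a large-subunit protein, was higher only narrowly past the threshold there (0.43, SE 0.17, limma adjusted p = 0.0467). The call of Mrpl54 was lost without any 1 of NP libraries 19, 20 and 22 or AF libraries 25, 27 and 28 (limma adjusted p between 0.0516 and 0.110), and that of Mrpl27 without NP library 15 or 19 or AF library 28 (0.0597 to 0.0620). Under all 5 scalings and in both treatments, Mrps11, Mrps7 and Mrpl12 were lower and Mrpl41 was higher in NP. With the red blood cell covariate none of the 4 was called in either treatment, and Mrpl12 turned from −0.78 to 0.11 in vehicle.

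Other members of set role followed the bulk of the family. Mrps30, Mrps27, an RNA-binding protein of the small subunit, and Mrpl46 were called lower in NP in both treatments, with −0.36, −0.37 and −0.37 in vehicle. Mrps36, Mrpl58, Mrpl45 and Mrps12, the decoding-centre protein, passed the threshold under MDL-800 (−0.36, −0.36, −0.43 and −0.38) but not in vehicle (−0.30, −0.10, −0.23 and −0.07). Mrpl44, Mrps18a, Mrps18b and Mrps18c did not pass in either, with −0.08, −0.24, 0.05 and −0.27 in vehicle.

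In NP, MDL-800 was set against vehicle. None of the 78 members was called by limma, against 0.232% of all genes called higher and 0.0183% called lower. At an unadjusted p under 0.05, 4 members were higher and 5 lower, where the background was 9.11% and 4.99%. The median of the members was −0.04 and that of all genes −0.03. On simulated data with 200 of 16383 genes changed between these groups, the test found 166 at a log2 change of 1, with 11 false calls, and 49 at 0.5, with 1. For NP against AF in vehicle it found 144 at 1, with 3 false calls, and 0 at 0.5. The real tissue comparison called 3577 genes higher and 5550 lower, far more than the 200 changed here. Its cut-off on the unadjusted p was therefore looser. The real treatment comparison in NP called 38 genes higher and 3 lower, fewer than the 166 or 49 found here, so its cut-off was stricter. Noise was also simulated for each gene on its own. The simulated counts therefore do not show what either comparison could find.

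Mrpl14, a large-subunit protein at the interface with the small subunit, stood apart. It had 10.3, 11.3, 18.1, 20.3 and 21.1 scaled FPKM in NP vehicle and 32.1, 24.5, 31.6, 32.9 and 35.9 in NP MDL-800. Each treated library was above each vehicle library, the sole such case among the members, and none lay below; of all genes, 3.5% were higher and 1% lower without overlap. The means were 16.2 ± 5.08 and 31.4 ± 4.19 (SD, n = 5), a log2 difference of 0.96 (SE 0.20), and limma gave an adjusted p of 0.0743. Without NP vehicle library 6 it was 1.06 with a limma adjusted p of 0.044, and with GC and length trends removed it was 0.68 with a limma adjusted p of 0.0856. In AF, Mrpl14 had 21.8, 25.9, 15.5, 15.4 and 19.7 in vehicle and 22.8, 8.63, 14.5, 31.4 and 29.3 under MDL-800. The AF groups overlapped widely, the treated libraries spread on both sides of the vehicle ones, and the log2 difference was 0.00 (limma SE 0.32, adjusted p = 1).

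The other members of smallest p in NP were Mrpl53, Mrps5 and Mrps7 among the higher and Mrpl17, Mrpl33, Mrpl50 and Mrps14 among the lower. Mrpl53 had 6.38 ± 1.94 (SD, n = 5) in vehicle against 11.3 ± 3.29 under MDL-800, a log2 difference of 0.74 (limma SE 0.23, adjusted p = 0.179). All of its stretches of 31 bases are shared with Gm42688, which overlaps it on the same strand, so the gene behind this value is uncertain. Mrps5 and Mrps7 had log2 differences of 0.43 (limma adjusted p = 0.263) and 0.39 (limma adjusted p = 0.313). Mrpl17 had 79.8 ± 4.95 and 62.7 ± 9.75 (SD, n = 5), a log2 difference of −0.35 (limma SE 0.10, adjusted p = 0.148). Mrpl33 had 131 ± 18.8 and 105 ± 9.03 (SD, n = 5), or −0.31 (limma adjusted p = 0.194). Mrpl50 and Mrps14 had −0.20 and −0.22.

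The GC content of the transcripts moved with the treatment difference in NP. Across the 78 members Pearson's r between GC content and the log2 fold change was 0.48, and across 16348 genes tested it was 0.38, which describes genes of shared libraries. The 39 members above the family's median GC content of 51.4% had a median log2 fold change of 0.08, and the 39 below had −0.06. Mrpl14 has a GC content of 59.0%, Mrpl53 53.9% and Mrpl33 46.7%. For each library, the slope on GC content was taken from log2 values with each gene's mean over the 20 libraries removed. Its sign is thus relative to the other libraries. Per 10 percentage points it lay between −0.30 and −0.0063 in NP vehicle libraries. In NP MDL-800 libraries it lay between 0.028 and 0.098, without overlap. Of the NP vehicle libraries, 1 and 2 both stood at −0.30, and 3, 5 and 6 at −0.021, −0.049 and −0.0063. Mrpl14 was also lowest in libraries 1 and 2 (10.3 and 11.3 scaled FPKM). In AF the slope ranged from −0.26 to 0.11 in vehicle and from −0.12 to 0.15 under MDL-800. The part of GC content in the NP values was not tested beyond the fit with its trend removed, in which no member was called.

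**Figure D5:**
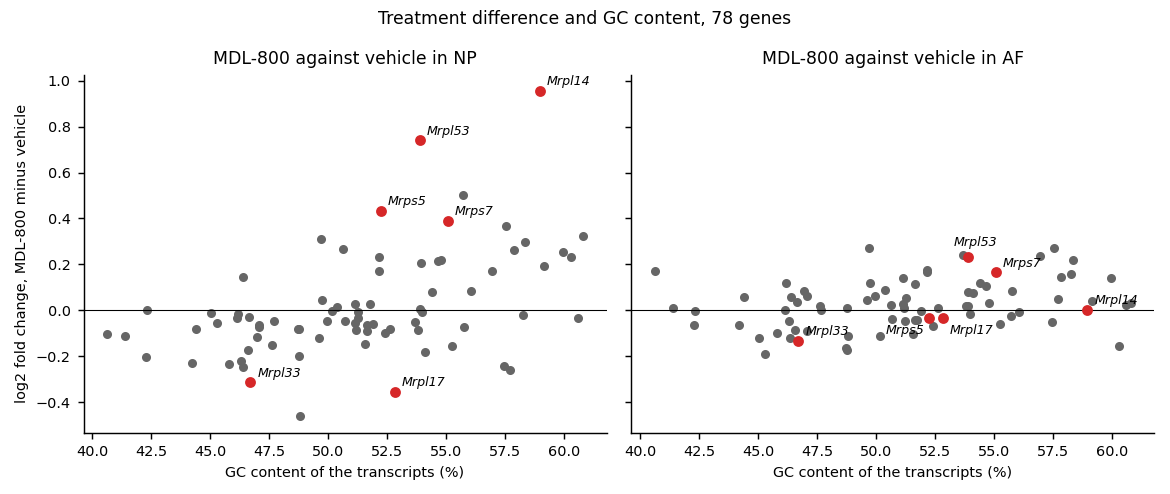
Log2 fold change (MDL-800 minus vehicle) of the 78 members against the GC content of their transcripts, in NP (left) and AF (right), with 6 members named in red. In NP the points rise with GC content (r = 0.48 across genes) and Mrpl14 is the highest at 0.96, whereas in AF Mrpl14 lies at 0.00.

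In AF, no member was called, and of all genes 0% were called in either direction. No member reached an unadjusted p under 0.05, against 0.922% of all genes higher and 0.726% lower. The members' log2 fold changes lay between −0.19 and 0.27. The smallest p-values were of Mrpl2, which helps form the peptidyl transferase centre (0.27, limma adjusted p = 1), Mrpl51, Mrps23 and Mrpl57 among the higher (0.24, 0.18 and 0.27). Among the lower they were of Mrpl3, Mrpl47, Mrpl30 and Mrps17 (−0.17, −0.19, −0.16 and −0.11). Mrpl2 had 13.4 ± 1.55 (SD, n = 5) in vehicle against 16.5 ± 2.95 under MDL-800, and the groups overlapped.

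The difference of the treatment effect between NP and AF was tested in a fit of all 4 groups. No member was called, nor was any gene (0%), and 1 member had an unadjusted p under 0.05, in the higher direction, against 2.12% of all genes higher and 1.61% lower. That member was Mrpl14, with a difference of 0.95 (SE 0.39, limma adjusted p = 1.00). Next among the higher were Mrps5, Mrps24 and Mrpl55 with 0.47, 0.39 and 0.53, and among the lower Mrpl17, Mrps12, Mrpl32 and Mrpl51 with −0.32, −0.31, −0.27 and −0.29.

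The rest of the mitochondrial translation pathway was read from lists of its parts. The background for their counts in vehicle is 21.8% of all genes tested called higher in NP and 33.9% lower. In vehicle, 2 of 5 mitoribosomal proteins with other symbols were called lower in NP: Aurkaip1 (−0.36, limma adjusted p = 0.00344) and Dap3, the GTP-binding protein of the small subunit (−0.39, limma adjusted p = 0.0158). Of 26 assembly and rRNA modification factors, 5 were called higher and 4 lower. Rbfa, a maturation factor of the small subunit, had 7.51 ± 2.38 (SD, n = 5) in NP against 19.2 ± 5.98 in AF, or −1.24 (limma adjusted p = 0.00165). Malsu1, which acts in assembly of the large subunit, had 20.0 ± 3.82 and 9.36 ± 3.81 (SD, n = 5), or 1.07 (limma adjusted p = 0.00190). These 2 factors moved in opposite directions.

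Of 15 translation factors, 1 was called higher (Mrrf, the recycling factor, 0.54) and 4 lower, Oxa1l, the insertase of the inner membrane (−0.57), Gfm1 and Tsfm, elongation factors (−0.49 and −0.56), and Tufm, the elongation factor that delivers tRNA (−0.35, limma adjusted p = 0.0248). Tufm lost its call without NP library 2 or 5 or AF library 8, 9 or 13 (limma adjusted p between 0.0522 and 0.0630). Of 17 mitochondrial aminoacyl-tRNA synthetases, 1 was called higher and 2 lower. Of 17 regulators of mitochondrial DNA and biogenesis that were tested, 2 were called higher and 6 lower, among them Nrf1, the activator named with the motif above (−0.78, limma adjusted p = 0.000336). Tfam and Polrmt, which transcribe mitochondrial DNA, had −0.04 and −0.10, and Gabpa −0.16, none past the threshold. Ppargc1a did not pass the filter on low values.

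The respiratory chain subunits encoded in the nucleus are the partners of what these ribosomes make, and 5 of 83 were called higher and 31 lower in vehicle, with a median of −0.36. Cytosolic ribosomal proteins had 6 of 83 higher and 4 lower, with a median of 0.06. Of all genes tested, 21.8% were called higher and 33.9% lower, with a median of −0.08. In NP under MDL-800 no gene of these lists was called except 2 cytosolic ribosomal proteins that were higher. Rplp2 went from 228 ± 51.4 to 830 ± 208 (SD, n = 5; limma adjusted p = 0.0130) and Rpl29 from 198 ± 48.1 to 418 ± 61.1 (SD, n = 5; limma adjusted p = 0.0411). Under MDL-800 in AF no gene of these lists was called.

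Over the 20 libraries the members varied together in part. The median Pearson's r between pairs of members was 0.36, and 0.19 once the mean of each group was removed. Against the mean standardised profile of the family, r ran from −0.52 for Mrpl41 to 0.92 for Mrps16, and 72 of 78 were positive. Each member is itself part of that profile, which raises its r. No other set of genes was set beside these values. The 5 genes outside the family with the profile most like it were Polr1d (r = 0.95), Cyc1 (0.95), Sdhd (0.93), Psmb1 (0.93) and Atp5o (0.93), all over 20 libraries. These libraries share tissue and treatment, so the values describe these data.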

How the data were processed

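The authors deposited 1 table of FPKM values for 51789 genes in 20 libraries; per the labels' protocols, these were stranded total-RNA libraries after ribosomal RNA depletion. Per the submitters' processing notes, STAR 2.7.11b and mm10 were used. The program that computed FPKM, the annotation and the handling of reads that match several genes are not given in the sources used here. FPKM values were divided by a median-ratio factor per library (0.933 to 1.06). The 16383 genes that reached 1 FPKM in 5 or more of 20 libraries were tested on log2(scaled FPKM + 1) with limma 3.58.1 in R 4.3.3 (moderated by eBayes, trend on the mean), two-sided, with Benjamini-Hochberg adjustment over all of them and only the 2 groups compared in the fit. The pseudocount of 1 understates the change of low genes. The test was checked on simulated data. Depth was estimated from the steps that low values form in 6641 single-exon genes; 62.5% to 73.9% of the values fell on steps, so it is approximate, and intervals from counts are not given. Coordinates, GC content and shared sequence come from GENCODE M21 (GRCm38), promoters from RefSeq. The genes named were the 8 largest rises and falls among called members, the 4 of smallest p in each direction where fewer than 4 were called, the 4 highest and lowest in level, members of a set role, and up to 3 genes per other list. Mrpl46 and the 3 promoters printed were chosen after values were seen. The members, lists and rules were chosen with earlier results of these data known. Alternatives were another scaling, pseudocount, filter and trend, marker covariates, and each library left out in turn.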

Additional observations from a re-analysis of the deposited data

Results flagged for a closer look

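In groups of 5 libraries, a library was noted when its gap to the nearest other library was large for the group's range (Dixon's 95% limit). This held for 10 of 184 groups looked at, over 45 named members and the summed level of the family, where chance gives about 1 in 20, or 9.2. In NP vehicle, library 2 had the highest Mrpl35 (7.87 scaled FPKM, others up to 5.22) and the highest Mrpl45 (6.75, others up to 6.15), and library 6 the highest Mrps12 (48.5, others up to 37.3). In NP MDL-800, library 15 had the highest Mrpl51 (32.9, others up to 27.4) and library 22 the highest Mrps14 (26.3, others up to 22.4). In AF vehicle, Mrpl45 was lowest in library 10 (5.29, others from 7.79) and Mrps22 highest in library 12 (10.9, others up to 7.78). In AF MDL-800, Mrpl3 was highest in library 27 (23.2, others up to 19.8), Mrpl35 lowest in library 25 (4.21, others from 6.34) and Mrps36 highest in library 30 (52.0, others up to 40.1).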

How the results depend on the processing

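Counts of members called, higher and lower in NP, depended most on the scaling and on covariates. In vehicle (3 and 26) they were 6 and 10 with quantile normalization (median −0.030), 7 and 9 with upper-quartile scaling (−0.058), 14 and 7 with GC and length trends removed (0.077), 0 and 0 with red blood cell or bone markers as a covariate (−0.36 with bone), and 6 lower with muscle markers (−0.10). Under MDL-800 (3 and 40) they were 1 higher without scaling, 7 and 14 with quantile normalization (−0.037), 7 and 15 with upper-quartile scaling (−0.092), 19 and 6 with trends removed (0.061), 0 and 2 with red blood cell markers, and 0 and 4 with muscle markers. The share of all genes called with a covariate is not given here. The cause was not tested. Leaving out each library gave 1 to 4 higher under MDL-800 (1 without NP library 19 or AF library 28), and 0 to 1 called higher for the treatment in NP (Mrpl14 without vehicle library 6). Numbers in the column headers recur between NP and AF, unexplained by the labels. In vehicle, deviations of same-numbered libraries correlated between −0.178 and 0.285, and those of differently numbered libraries between −0.372 and 0.327. With this replicate block, 3 members were higher and 18 lower in vehicle, and 12 lower under MDL-800 (3 pairs). The share of all genes called with the block is not given here.

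Single values that turned sign were mostly near 0. In vehicle, Tfam, Polrmt and Gabpa became 0.14, 0.26 and 0.024 with quantile normalization, 0.18, 0.11 and 0.062 with upper-quartile scaling, and 0.20, 0.31 and 0.031 with trends removed, where Tufm became 0.077. With red blood cell markers Mrpl12, Polrmt and Tufm became 0.11, 0.27 and 0.16, with muscle markers Tfam and Polrmt became 0.14 and 0.11, and with bone markers Mrpl27 became −0.26. Under MDL-800, Mrpl27 became −0.036 with red blood cell markers. For the treatment in NP, Tfam, Polrmt and Nrf1 became 0.032, −0.11 and 0.021 with trends removed, Nrf1 0.0065 with red blood cell markers and Tufm 0.0012 with muscle markers. Over single libraries left out, Tfam ran from −0.11 to 0.017 in the tissue comparison, and for the treatment Tfam from −0.12 to 0.016, Tufm from −0.077 to 0.036 and Nrf1 from −0.064 to 0.055.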
